A study of Homo sapiens with 9 samples.

Results

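Open chromatin was examined at 10 genes of cell division, through the peaks called in and around them: UBE2C, CDC20, CDK1, CCNA2, TOP2A, MKI67, FOXM1, E2F1, AURKA and PLK1. Peaks of all 9 libraries that shared at least 1 bp were merged into 94773 regions on hg19. The members are the 49 merged regions that overlapped fixed windows of 50 to 80 kb around the 10 genes. The windows follow gene position and apply no cutoff on a measured value, but the genes were picked with earlier results of these data known. Regions are named by gene window and order along the chromosome, so that MKI67-3 is the third region of the MKI67 window.

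ATAC-seq reads out open chromatin, since the transposase Tn5 cuts and tags DNA that is free of nucleosomes, and a peak marks a stretch where such cuts pile up. All libraries came from VCaP, a human prostate cancer cell line labelled wild type, and each group had 3. VCaP16 is an enzalutamide-resistant derivative of VCaP grown in 16 µM enzalutamide, an antagonist of the androgen receptor. VCaP_ENZ held VCaP cells given 10 µM enzalutamide for 96 h, and VCaP_DMSO held VCaP cells given the solvent DMSO. VCaP16 is a single resistant line whose origin as 1 clone or a pool is not given in the labels. No VCaP16 library was free of the drug, so effects of resistance and of ongoing treatment cannot be told apart against VCaP_DMSO, and the dose also differs between VCaP16 and VCaP_ENZ. Nothing in the labels states that the 3 replicates of a group were grown apart, and p-values then reflect only variation among these libraries, possibly technical.

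Entry into S phase is driven by E2F transcription factors, which are held back by the retinoblastoma protein until cyclin-dependent kinases inactivate it. Late cell cycle genes are controlled by MuvB-based complexes with B-MYB and FOXM1, which act through short promoter elements called CHR elements and CCAAT boxes. In mitosis, CDK1 with its cyclins, PLK1 and AURKA drive spindle assembly, and the anaphase-promoting complex, with CDC20 as activator and UBE2C as its ubiquitin-conjugating enzyme, ends it. In prostate cancer, UBE2C, CDC20 and CDK1 are known as genes of castration-resistant growth, and UBE2C is used as a marker of androgen receptor splice variant activity.

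The start sites of 4 genes with a promoter entry are printed here, because the results on their windows turn on differences between groups in calls, covered length or rank. The sequences come from RefSeq on GRCh38.p14 and span 300 bases around the start site, written along the strand given. The peak lists are on hg19, so no peak was placed on these letters. Capitals mark letters searched on both strands. They are CHR elements, of which one form reads TTTGAA and the other form reads TTTAAA, then boxes that read CCAAT, and E2F-like letters, which read TTTCCCGC, TTTGGCGC or TTTCGCGC. In MKI67, 1 base belongs to 2 matches, and in the other 3 promoters printed matches do not overlap. A further CDK1 entry, chr10:60778081-60778380, is not printed and holds 1 TTTAAA.
MKI67, chr10:128126374-128126673, minus strand: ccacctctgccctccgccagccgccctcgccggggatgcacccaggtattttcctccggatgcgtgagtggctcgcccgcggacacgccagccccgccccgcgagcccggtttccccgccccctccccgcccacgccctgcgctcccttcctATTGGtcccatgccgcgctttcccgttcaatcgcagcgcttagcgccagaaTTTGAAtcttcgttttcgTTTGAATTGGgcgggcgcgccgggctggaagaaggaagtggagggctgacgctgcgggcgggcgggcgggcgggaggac
E2F1, chr20:33686336-33686635, minus strand: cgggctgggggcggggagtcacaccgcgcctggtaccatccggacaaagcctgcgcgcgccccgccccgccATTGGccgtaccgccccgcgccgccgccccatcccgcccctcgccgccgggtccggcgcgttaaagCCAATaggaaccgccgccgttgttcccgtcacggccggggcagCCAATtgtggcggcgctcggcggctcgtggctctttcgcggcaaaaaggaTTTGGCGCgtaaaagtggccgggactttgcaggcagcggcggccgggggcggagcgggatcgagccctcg
CDK1, chr10:60778228-60778527, plus strand: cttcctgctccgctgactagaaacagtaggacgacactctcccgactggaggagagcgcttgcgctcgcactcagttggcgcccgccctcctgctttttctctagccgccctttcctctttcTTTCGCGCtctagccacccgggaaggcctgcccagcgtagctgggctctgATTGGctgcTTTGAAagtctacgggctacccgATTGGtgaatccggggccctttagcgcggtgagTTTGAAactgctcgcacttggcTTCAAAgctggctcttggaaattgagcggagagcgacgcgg
CDC20, chr1:43358731-43359030, plus strand: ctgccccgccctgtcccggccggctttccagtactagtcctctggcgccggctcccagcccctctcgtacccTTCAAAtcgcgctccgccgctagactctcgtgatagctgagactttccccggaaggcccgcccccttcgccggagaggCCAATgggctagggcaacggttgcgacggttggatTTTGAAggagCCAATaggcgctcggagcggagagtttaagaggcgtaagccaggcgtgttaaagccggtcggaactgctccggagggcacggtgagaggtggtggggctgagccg
Of the 10 genes, 7 matched the promoter table, with 8 promoters, and UBE2C, FOXM1 and AURKA are named only. All 7 genes hold CCAAT on one strand or the other, as do 34.6% of the 35116 promoters of the table. A CHR element stands in the promoters of 5 genes, CDC20, CDK1, MKI67, PLK1 and TOP2A, against 24% of all promoters, and each of these 5 holds CCAAT as well, against 9.27% of all promoters. The E2F-like letters stand in those of CDK1 and E2F1, against 2.74% of all. A match of letters is a description and not a site.

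The lists held 57894, 57315 and 68921 peaks in VCaP16, 54033, 61744 and 53646 in VCaP_ENZ, and 57677, 54757 and 53799 in VCaP_DMSO, on chromosomes 1 to 22 and X. They give a position and the authors' score per peak. Sequencing depth is unknown because reads were not counted in them. VCaP16 replicate 3 and VCaP_ENZ replicate 2, the longest lists, also called the most member regions, 42 and 38 of 49, against 32 to 36 in the others. Neither prostate marker genes nor cell cycle genes beyond the 10 were looked up, because no annotation of hg19 was used here. For the same reason no region was assigned to a promoter or to a gene. A window can hold sequence of neighbours, which in RefSeq gene order include RHNO1 beside FOXM1 and CSTF1 beside AURKA.

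Chromatin in the 10 gene windows was open in all 3 groups. Of the 49 member regions, 25 (51.0%) were called in all 9 libraries, 17 in 2 to 8 libraries and 7 in a single library. Over the whole genome 34.9% of the merged regions were called in all 9. Each of the 10 windows held at least 1 region called in all 9, from 1 in AURKA and PLK1 to 5 in E2F1. Member regions called everywhere were wide, with a median of 1160 bp and a range of 466 to 2435 bp, against a median of 838 bp for all regions called in 9 libraries. Those of a single library had a median of 235 bp. Peaks covered between 1.60% of the PLK1 window and 7.88% of the CDC20 window on average over the 9 libraries. In 60 kb tiles of the genome with at least 1 peak the median was 1.03%, and 66.1% of tiles lay below the PLK1 window and 99.7% below the CDC20 window.

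**Figure D1:**
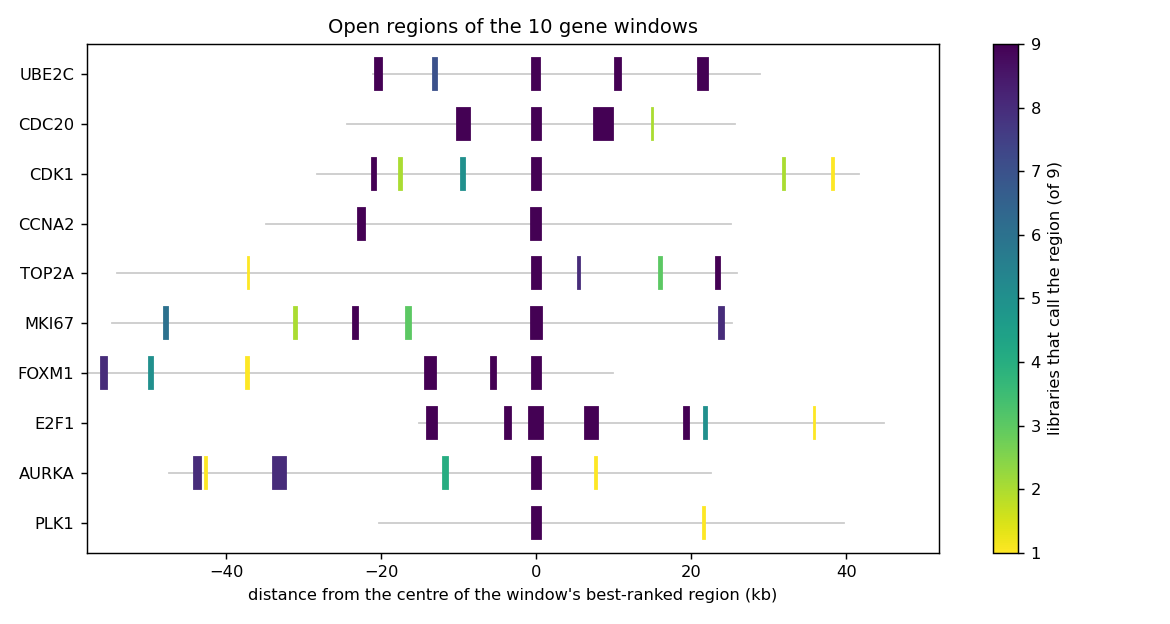
Open regions of each gene window, drawn to scale by distance in kb from the centre of the window's best-ranked region (x axis), 1 row per gene, with the grey line as the extent of the window. Colour gives how many of the 9 libraries called a region; the region at 0 was called in all 9 in every row, while 7 of the 49 regions were called in 1 library.

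The 10 gene windows differed in how high their best region stood in the lists. Since no region was assigned to a gene, the best region of a window need not lie at the named gene. The best region of a window is the one with the best median rank of its score, where rank 1 is the highest score of a library. UBE2C-3, E2F1-3 and AURKA-5 had median ranks of 759, 1070 and 1178 and took the first 3 places among the 10 in each of the 9 libraries. Their ranks overlapped, at 524 to 1290 for UBE2C-3, 655 to 1866 for E2F1-3 and 430 to 1479 for AURKA-5, so these 3 have no order beyond their spread. FOXM1-6 (2488), CDC20-2 (2753) and CDK1-4 (4014) followed, with ranges that overlapped from neighbour to neighbour. TOP2A-2 (6206), CCNA2-2 (6817) and PLK1-1 (10071) came next, again with overlapping ranges. MKI67-5 had a median rank of 28978 and was last of the 10 in all 9 libraries. Scores serve here only to order peaks within a list.

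The transcription factor genes come first. E2F1 encodes the activator of genes for S phase entry, and its window on chromosome 20 held 7 regions, 5 of them called everywhere. The best was E2F1-3 at chr20:32254200-32256003. Its scores were 79.9, 69.3 and 93.9 in VCaP16, 74.1, 104 and 88.2 in VCaP_ENZ and 99.8, 95.1 and 68.2 in VCaP_DMSO. Peaks covered 1724 to 1789 bp of it in every library, so its extent hardly moved between libraries.

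Calls at the E2F1 window differed between groups in 1 region. E2F1-6, at chr20:32276721-32277073, was called in all 3 VCaP16 libraries with scores of 9.27, 6.52 and 6.92, in VCaP_ENZ replicates 1 and 2 with scores of 7.74 and 9.27, and in no VCaP_DMSO library. It was the single member region of 39 in the consensus (seen in 2 or more libraries of one group) that was called in every VCaP16 and no VCaP_DMSO library. Over the genome 2.33% of 66108 consensus regions had this pattern in that direction, against 2.56% of the 39, so the share lay near the background. The scores were low, at ranks of 34488, 44169 and 52556 in the VCaP16 lists. Fisher's exact test of 3 VCaP16 against 6 VCaP libraries gave p = 0.167, with an adjusted p of 1.00 over all consensus regions.

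E2F1-4 and E2F1-5, both called everywhere, stood lower in both drug groups than in VCaP_DMSO, though neither difference passed the adjusted test. To compare them, each library's scores were ranked over the same 33033 regions called in all 9 libraries, and the rank position runs from 0% to 100% for the highest score. E2F1-4, at chr20:32261416-32263013, had rank positions of 17.3, 21.6 and 6.99 percent in VCaP16, 12.8, 5.41 and 11.3 percent in VCaP_ENZ and 35.5, 36.4 and 30.5 percent in VCaP_DMSO. Every library of both drug groups lay below every VCaP_DMSO library, as did 7.52% of the 33033 regions for VCaP_ENZ and 9.80% for VCaP16. VCaP_ENZ averaged 9.86 ± 3.93% against 34.1 ± 3.18% in VCaP_DMSO (SD, n = 3 each), a difference of -24.25 points with a 95% interval of -38.12 to -10.37. It did not pass the adjustment over all 33033 regions (limma, unadjusted p = 0.00225, adjusted p = 0.20). VCaP16 averaged 15.3 ± 7.51%, which is -18.82 points from VCaP_DMSO (limma adjusted p = 0.188). When a peak must cover 50% of the region, E2F1-4 was called in 0 VCaP16 libraries, 1 VCaP_ENZ library and 1 VCaP_DMSO library and could not be compared, while E2F1-5 was still called in all 9.

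E2F1-5, at chr20:32274134-32274739, also had its highest rank positions in VCaP_DMSO. Its scores were 19.5, 12.8 and 28.8 in VCaP16, 18.1, 19.2 and 19.5 in VCaP_ENZ and 30.7, 27.8 and 25.9 in VCaP_DMSO. The rank positions were 51.8, 26.1 and 53.4 percent in VCaP16, 49.2, 37.6 and 55.4 percent in VCaP_ENZ and 63.2, 66.4 and 65.5 percent in VCaP_DMSO. VCaP_DMSO stood above both drug groups without overlap, and its 3 libraries lay within a few points of each other. The differences were -21.29 points for VCaP16 (limma adjusted p = 0.353) and -17.65 points for VCaP_ENZ (limma adjusted p = 0.549), neither past the threshold. Both comparisons share the VCaP_DMSO libraries. This region was chosen for naming after its values were seen.

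**Figure D2:**
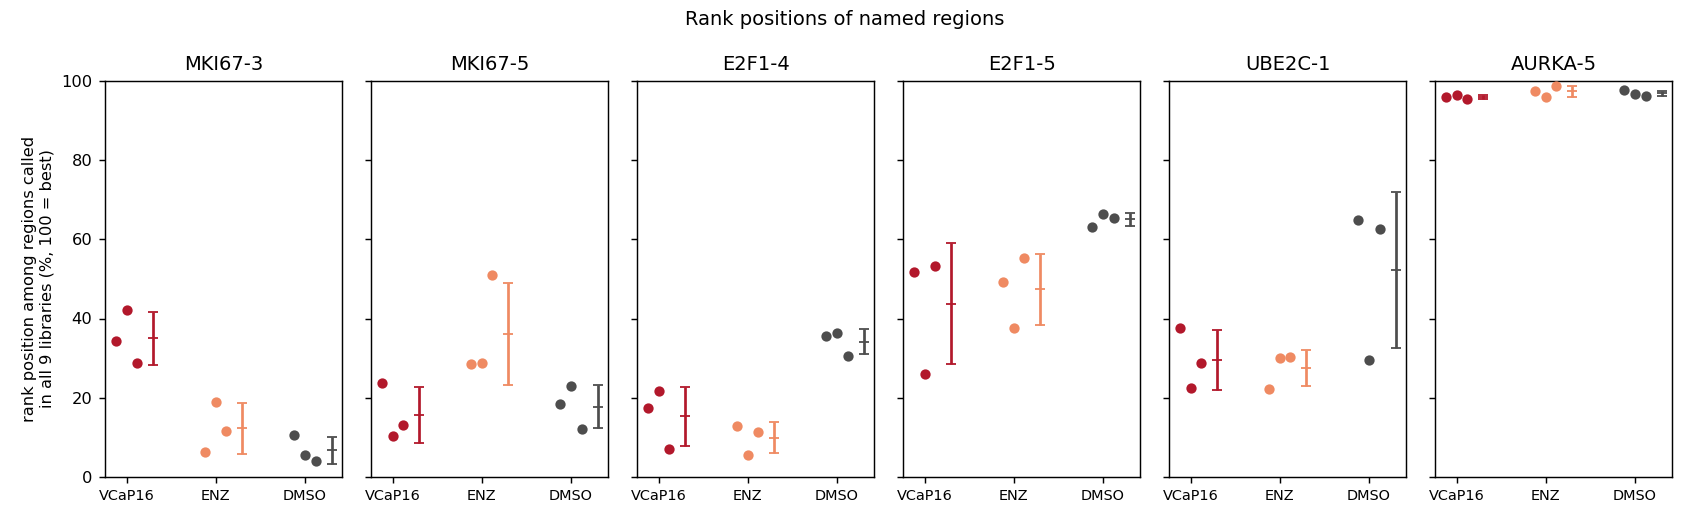
Rank position of 6 named regions (y axis, percent, 100 = highest score among the 33033 regions called in all 9 libraries) in the 3 libraries of each group (x axis; VCaP16, VCaP_ENZ and VCaP_DMSO from left to right). Points are libraries and bars are mean ± SD; MKI67-3 stands at 28.7 to 42.0% in VCaP16 and at 4.01 to 19.0% in the 6 VCaP libraries, and E2F1-4 and E2F1-5 are highest in VCaP_DMSO.

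FOXM1, the forkhead factor that switches on genes of G2 and mitosis, had 6 regions in its window on chromosome 12, of which 3 were called everywhere. The best, FOXM1-6 at chr12:2999453-3000696, scored 43.1, 46.7 and 79.8 in VCaP16, 49.0, 73.0 and 54.2 in VCaP_ENZ and 73.4, 65.7 and 56.8 in VCaP_DMSO. The groups overlapped. FOXM1-4, at chr12:2985686-2987092, ranked next, with scores of 35.5, 26.1 and 27.9 in VCaP16, 15.9, 36.4 and 13.6 in VCaP_ENZ and 32.4, 20.8 and 18.1 in VCaP_DMSO. The groups overlapped here too. FOXM1-3, at chr12:2962634-2963040, was called in VCaP16 replicate 1 alone, at rank 21372 of its list.

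The kinases and their cyclin followed. CDK1, the kinase that triggers mitosis, had 6 regions in its window on chromosome 10, 2 of them called everywhere. CDK1-4, at chr10:62537788-62538875, was the best, with scores of 41.2, 37.3 and 72.3 in VCaP16, 53.5, 51.0 and 47.1 in VCaP_ENZ and 59.3, 58.0 and 43.3 in VCaP_DMSO. Peaks covered 870 to 963 bp of it in VCaP16, 584 to 833 bp in VCaP_ENZ and 898 to 947 bp in VCaP_DMSO. The peak was thus narrower in every VCaP_ENZ library than in any VCaP16 or VCaP_DMSO library. It was the 1 member of the 25 regions called everywhere with this order, against 1.68% of all 33033 such regions. The comparison was chosen after the values were seen.

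CDK1-3, at chr10:62528608-62529086, had a peak in each VCaP_ENZ library and in none of VCaP_DMSO. It scored 7.87, 4.02 and 9.40 in VCaP_ENZ, and 6.91 and 14.7 in VCaP16 replicates 2 and 3. It was the single region of the 39 with the VCaP_ENZ-against-VCaP_DMSO pattern, a share of 2.56% beside 0.936% over all consensus regions. The count of 1 falls to 0 when peaks need a score of at least 5 or lists are cut to equal length. When a peak must cover 50% of the region, CDK1-3 was called in 2 VCaP16 libraries and 1 VCaP_ENZ library. No member region was called in every VCaP_DMSO library and no VCaP_ENZ library (background 0.799%) or in every VCaP_DMSO and no VCaP16 library (0.762%).

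The covered sequence of the CDK1 window averaged higher in VCaP16, a difference that did not pass the adjustment. Peaks covered 1396, 2294 and 2382 bp in VCaP16, 1638, 1464 and 1132 bp in VCaP_ENZ and 1326, 1368 and 1579 bp in VCaP_DMSO. VCaP16 replicates 2 and 3 stood above all other libraries, and replicate 1 lay among the VCaP libraries. The means were 2024 ± 546 bp in VCaP16 (SD, n = 3) and 1418 ± 184 bp in the 6 VCaP libraries, a difference of 606 bp. It was 295.8 bp with windows 10 kb shorter at each end and 920.2 bp without VCaP16 replicate 1, the highest value of 427.2 to 920.2 bp when 1 library was left out. The two-sided exact permutation p was 0.0476 over 84 splits, and 0.605 after Benjamini-Hochberg adjustment over the windows and all 34983 tiles. Of the tiles 7.87% had an unadjusted p under 0.05. None of the windows and tiles passed the adjustment, and the smallest p that this test can give is 0.0119. The adjusted value therefore says little about the CDK1 window on its own. Beside the 2 regions called everywhere, the window held CDK1-2, CDK1-3, CDK1-5 and CDK1-6, each called in 1 or 2 VCaP16 libraries and none of them in replicate 1. CDK1-5, at chr10:62570132-62570423, was called in VCaP16 replicates 2 and 3 and in no VCaP library, with scores of 5.66 and 3.6 and a Fisher's exact p of 0.0833. The unadjusted permutation p of the window was 0.0357 with a score of at least 5 and with lists of equal length, at 556.8 bp each. It was 0.0952 with shorter windows and 0.0714 with longer windows. As a share of all covered sequence in each library it was 0.0714, as a number of peaks 0.0952, and within replicate numbers 0.0741. It lay above 0.05 without any 1 library except VCaP16 replicate 1.

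CCNA2 encodes cyclin A, a partner of the cyclin-dependent kinases in S phase and G2. Its window on chromosome 4 was the plainest, with 2 regions, both called everywhere. CCNA2-2, at chr4:122744255-122745566, scored 33.1, 32.1 and 49.0 in VCaP16, 40.9, 43.7 and 39.6 in VCaP_ENZ and 46.8, 26.5 and 44.5 in VCaP_DMSO. CCNA2-1, at chr4:122721872-122722743, scored 15.9, 9.36 and 21.0 in VCaP16, 12.6, 18.5 and 7.92 in VCaP_ENZ and 22.5, 11.6 and 14.5 in VCaP_DMSO. In both regions the groups overlapped.

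PLK1, the polo-like kinase of centrosome maturation and mitotic exit, had 1 region called everywhere in its window on chromosome 16. PLK1-1, at chr16:23689719-23690956, had rank positions of 72.6, 44.8 and 63.1 percent in VCaP16, 62.7, 70.1 and 63.5 percent in VCaP_ENZ and 69.7, 76.1 and 75.4 percent in VCaP_DMSO. VCaP16 replicate 2 was the lowest library. The difference of VCaP16 from VCaP_DMSO, -13.59 points with a 95% interval of -30.25 to 3.08, did not pass the test (limma adjusted p = 0.454). The other region, PLK1-2, was called in VCaP16 replicate 3 alone with a score of 3.6.

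AURKA, the Aurora kinase of spindle poles, had 6 regions in its window on chromosome 20 and 1 called everywhere, AURKA-5 at chr20:54966885-54967967. Its rank positions were 95.9, 96.4 and 95.5 percent in VCaP16, 97.6, 96.0 and 98.7 percent in VCaP_ENZ and 97.6, 96.6 and 96.3 percent in VCaP_DMSO. It held among the top few percent in all libraries. The difference between VCaP16 and VCaP_ENZ was -1.49 points, with a 95% interval of -3.49 to 0.52 (limma adjusted p = 0.552), and it was -0.83 points without VCaP_ENZ replicate 3. The other 5 AURKA regions were not called in every library. AURKA-1 and AURKA-3 were called in 8 libraries each, AURKA-4 in 4, and AURKA-2 and AURKA-6 in VCaP_ENZ replicate 2 alone.

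The windows of CDC20 and UBE2C, genes of the anaphase-promoting complex, had the largest covered shares beside E2F1. Peaks covered 7.88% of the CDC20 window, 7.23% of the E2F1 window and 6.66% of the UBE2C window on average. UBE2C encodes the enzyme that hands ubiquitin to this complex, and UBE2C-3, at chr20:44440606-44441626, was the best-ranked region of the 49. Its scores were 88.1, 85.4 and 97.8 in VCaP16, 80.9, 113 and 94.6 in VCaP_ENZ and 111, 88.3 and 103 in VCaP_DMSO, and its rank positions ran from 96.1 to 98.4% over all 9. The groups overlapped, and the difference from VCaP_DMSO had a 95% interval of -2.12 to 1.60 points in VCaP16 and of -1.68 to 2.04 points in VCaP_ENZ. Of the 5 regions of this window 4 were called everywhere. UBE2C-2, at chr20:44427721-44428260, was called in all VCaP16 and VCaP_ENZ libraries, at scores of 4.26 to 8.93, and in VCaP_DMSO replicate 1 alone, at 7.74. Fisher's exact test, which sets VCaP16 against all 6 VCaP libraries, gave p = 0.50 for it.

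UBE2C-1, at chr20:44420268-44421191, lay near the edge of the window. Its rank positions were 37.6, 22.5 and 28.8 percent in VCaP16, 22.2, 30.0 and 30.4 percent in VCaP_ENZ and 64.8, 29.6 and 62.6 percent in VCaP_DMSO. VCaP_DMSO replicates 1 and 3 were high and replicate 2 lay among the drug groups. Neither VCaP_ENZ (-24.77 points, limma adjusted p = 0.404) nor VCaP16 (-22.70 points, limma adjusted p = 0.328) passed the test against VCaP_DMSO.

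CDC20 encodes the activator that points the complex to its targets at anaphase. Its window on chromosome 1 had 4 regions, 3 called everywhere, and the highest covered share of the 10. CDC20-2, at chr1:43823852-43825011, scored 42.8, 54.4 and 76.9 in VCaP16, 54.5, 67.2 and 60.5 in VCaP_ENZ and 85.2, 55.0 and 44.3 in VCaP_DMSO, with overlapping groups. The covered length of the window was 3802, 3696 and 4428 bp in VCaP16, 3102, 3902 and 3313 bp in VCaP_ENZ and 4458, 4332 and 4414 bp in VCaP_DMSO. Every VCaP_ENZ library lay below every VCaP_DMSO library, with means of 3439 ± 415 bp in VCaP_ENZ and 4401 ± 63.9 bp in VCaP_DMSO (SD, n = 3 each) and a difference of -962 bp. The exact permutation p was 0.10, the smallest that 3 against 3 libraries can give. Among the 60 kb tiles 4.34% had every VCaP_ENZ library below every VCaP_DMSO library, and CDC20 was the 1 window of 10 that did; no window had the reverse (4.22% of tiles). No window had every VCaP16 library above every VCaP_DMSO library (9.69% of tiles), every VCaP_ENZ library (8.20%) or all VCaP libraries (3.62%). None had every VCaP16 library below them, where the shares of tiles were 2.65% for VCaP_DMSO, 2.01% for VCaP_ENZ and 0.463% for all VCaP libraries.

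CDC20-3 held most of this difference, and not all of it. In CDC20-3, at chr1:43831874-43834308, peaks covered 1731, 1287 and 1823 bp in VCaP16, 948, 1380 and 1184 bp in VCaP_ENZ and 2044, 1935 and 1897 bp in VCaP_DMSO. Every VCaP_ENZ library lay below every VCaP_DMSO library there. That order in covered length held in 3 of the 25 member regions called everywhere (12%), CDK1-4 and 2 of the CDC20 window, against 5.87% of all 33033 such regions. In CDC20-2 the groups overlapped. CDC20-3 was called as 2 peaks in each VCaP_DMSO library and as 3, 3 and 2 in VCaP_ENZ, so the sequence was shorter while the number of peaks was not. The rank positions of CDC20-3 overlapped, at 77.7, 75.6 and 59.5 percent in VCaP_ENZ and 67.6, 79.7 and 80.0 percent in VCaP_DMSO.

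**Figure D3:**
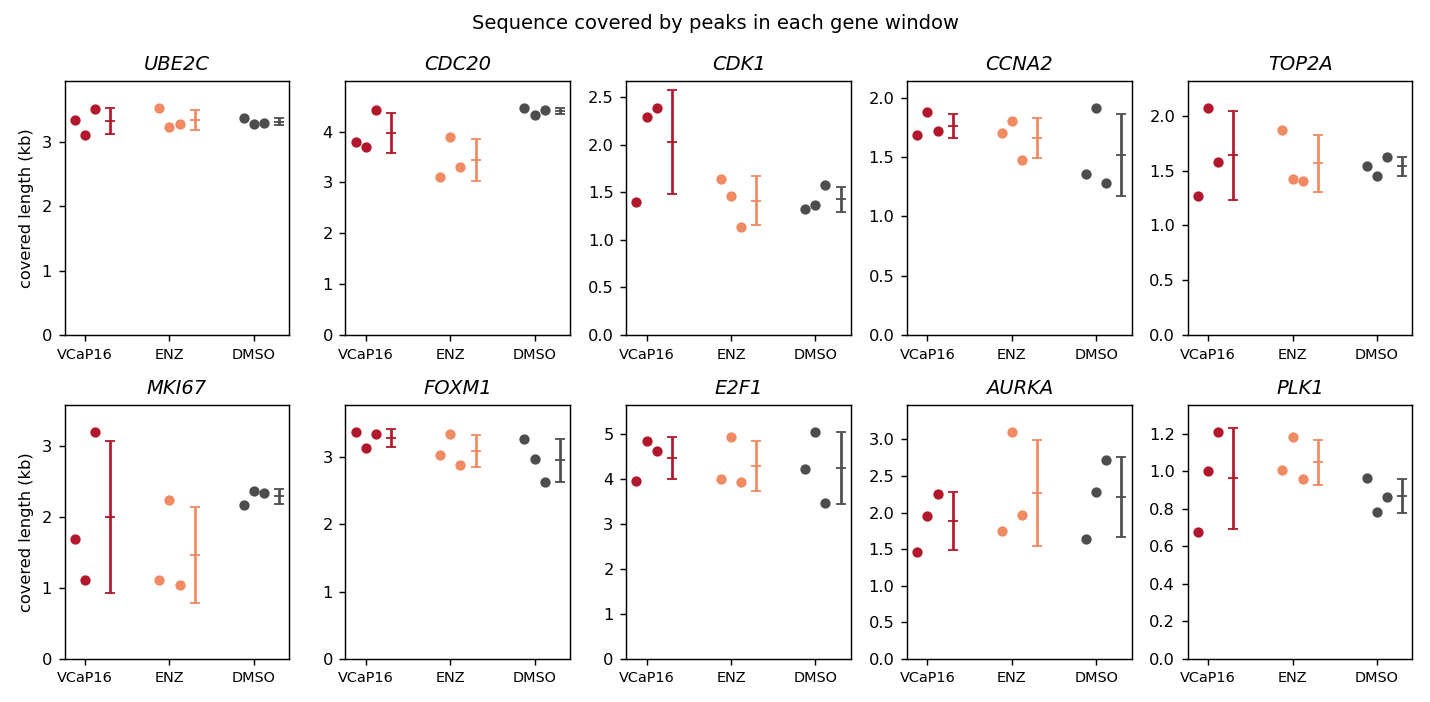
Sequence covered by peaks in each gene window (y axis, kb, from 0) for the 3 libraries of each group (x axis; VCaP16, VCaP_ENZ and VCaP_DMSO from left to right). Points are libraries and bars are mean ± SD; in CDC20 the VCaP_ENZ libraries lie at 3102 to 3902 bp, below the 4332 to 4458 bp of VCaP_DMSO, and in CDK1 replicates 2 and 3 of VCaP16 lie above all others.

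TOP2A, the topoisomerase that untangles chromosomes, had 5 regions in its window on chromosome 17. TOP2A-2, at chr17:38573571-38574736, scored 46.1, 35.9 and 57.2 in VCaP16, 31.3, 46.3 and 32.9 in VCaP_ENZ and 59.0, 32.5 and 38.4 in VCaP_DMSO, with overlapping groups. TOP2A-5 was called everywhere too, with scores of 8.20 to 20.9. TOP2A-4, at chr17:38589985-38590423, was called in VCaP16 replicates 2 and 3 and in VCaP_ENZ replicate 1, at scores of 3.39 to 5.86, and in no VCaP_DMSO library.

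MKI67 encodes Ki-67, the proliferation marker that coats mitotic chromosomes. Its window on chromosome 10 had 6 regions, 2 of them called everywhere, and the order of the groups differed between these 2. MKI67-3, at chr10:129901072-129901687, scored 14.2, 17.3 and 18.6 in VCaP16, 6.69, 13.3 and 8.01 in VCaP_ENZ and 10.0, 6.43 and 5.74 in VCaP_DMSO. Its rank positions were 34.3, 42.0 and 28.7 percent in VCaP16, 6.27, 19.0 and 11.5 percent in VCaP_ENZ and 10.6, 5.39 and 4.01 percent in VCaP_DMSO. All 3 VCaP16 libraries lay above all 6 VCaP libraries, as did 3.70% of the 33033 regions; 10.1% did so against VCaP_DMSO and 8.59% against VCaP_ENZ. No member region had all 3 VCaP16 libraries below all 6 VCaP libraries (background 3.39%).

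VCaP16 averaged 35.0 ± 6.72% and VCaP_DMSO 6.66 ± 3.46% at MKI67-3 (SD, n = 3 each). The difference of 28.33 points had a 95% interval of 14.59 to 42.07 and just missed the threshold (limma adjusted p = 0.0528). Against VCaP_ENZ (12.3 ± 6.39%) the difference was 22.72 points (limma adjusted p = 0.162). Against the mean of both VCaP groups, a contrast added after the data were seen, it was 25.53 points with a limma adjusted p of 0.0468, the 1 member region of 25 past the threshold, where 1.03% of all regions passed. The call was lost when any 1 of the 9 libraries was left out, and over the other limma settings the adjusted p ran from 0.0488, with lists of equal length, to 0.168. When a peak must cover 50% of the region, MKI67-3 was called in 1 VCaP16 library, 1 VCaP_ENZ library and 2 VCaP_DMSO libraries and could not be compared. The exact permutation test of 3 against 6 libraries gave p = 0.0119, the smallest it can give, and 0.281 after adjustment, so no region could pass it. The peaks covered 254, 292 and 616 bp of MKI67-3 in VCaP16 and 236 to 354 bp in the 6 VCaP libraries, so VCaP16 replicate 3 alone had a wide peak.

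MKI67-5, at chr10:129924088-129925447, was the best-ranked region of the window by its median and stood highest in VCaP_ENZ. Its rank positions were 23.7, 10.2 and 13.1 percent in VCaP16, 28.6, 28.7 and 51.0 percent in VCaP_ENZ and 18.3, 22.8 and 12.1 percent in VCaP_DMSO. Every VCaP_ENZ library lay above every VCaP_DMSO library, as did 8.27% of all regions, and every VCaP16 library lay below every VCaP_ENZ library, as did 8.99%. VCaP_ENZ was 18.36 points above VCaP_DMSO (limma adjusted p = 0.417), and VCaP16 was -20.42 points from VCaP_ENZ (limma adjusted p = 0.305). VCaP_ENZ replicate 3, at 51.0%, was the highest library, and without it the differences were 11.21 and -13.41 points. When a peak must cover 50% of the region, MKI67-5 was called in 2 VCaP16 libraries, 1 VCaP_ENZ library and 3 VCaP_DMSO libraries and could not be compared. MKI67-4, at chr10:129907954-129908570, was called in VCaP16 replicate 3 and in VCaP_DMSO replicates 1 and 3.

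Across the 25 member regions called everywhere, no region passed an adjusted p of 0.05 in any of the 3 comparisons between groups (limma with Benjamini-Hochberg adjustment over 33033 regions). Over all regions 0.0333% passed for VCaP_ENZ against VCaP_DMSO, 1.07% for VCaP16 against VCaP_DMSO and 0.0878% for VCaP16 against VCaP_ENZ. At an unadjusted p under 0.05 there were 3 of 25 (12%) for VCaP_ENZ against VCaP_DMSO, 3 for VCaP16 against VCaP_DMSO and 2 (8%) for VCaP16 against VCaP_ENZ. The background shares were 11.1%, 14.7% and 12.7% of all regions, so the members' counts lay near or below them. For VCaP16 against both VCaP groups 1 of 25 (4%) had an unadjusted p under 0.05, where 14.4% of all regions did. The median differences of the 25 were -0.17, -0.42 and -0.25 points in the same 3 comparisons, beside -0.05, -0.32 and -0.08 points over all regions. Of the 39 consensus members none had a Fisher's exact p under 0.05 for VCaP16 against the 6 VCaP libraries, where 2.33% of all consensus regions did and none passed the adjustment. No member was called in every VCaP16 and no VCaP_ENZ library (background 1.62%), in every VCaP_ENZ and no VCaP16 library (0.588%), in every VCaP16 and no VCaP library (0.787%), or in every VCaP and no VCaP16 library (0.126%).

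**Figure D4:**
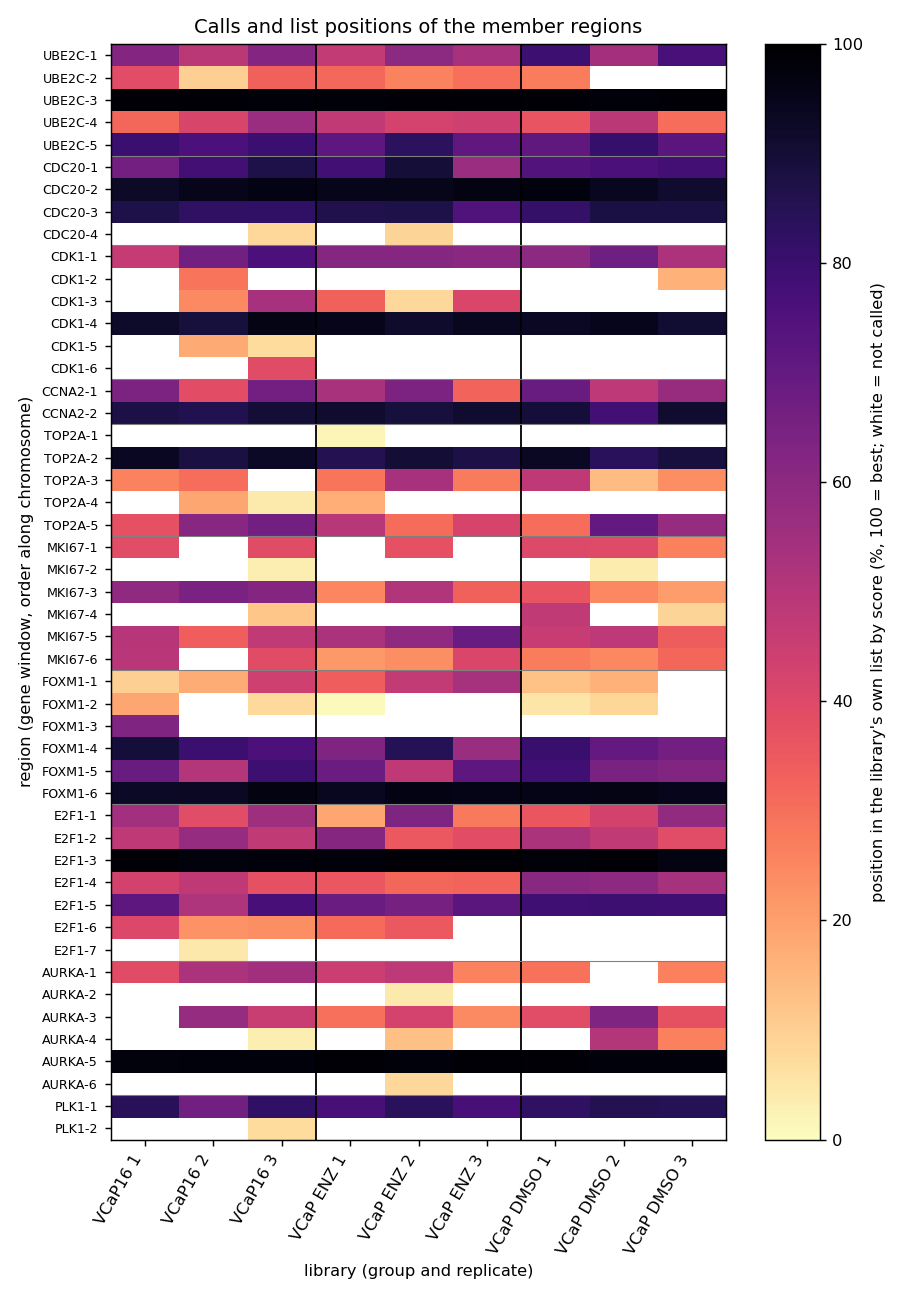
Calls of the 49 member regions (rows, by gene window and order along the chromosome) in the 9 libraries (columns, 3 per group). Colour gives the position of the region's best peak in that library's own list by score (percent, 100 = best) and white means not called; the lists differ in length, so colours are compared within a column, and the darkest rows are UBE2C-3, E2F1-3 and AURKA-5.

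Summed over the 10 windows, peaks covered 25325 ± 2805 bp in VCaP16, 23590 ± 2736 bp in VCaP_ENZ and 24764 ± 880 bp in VCaP_DMSO (SD, n = 3 each). As a share of all sequence covered in a library this was 0.0812 ± 0.00427%, 0.0835 ± 0.00229% and 0.0868 ± 0.00669% in the same order. The groups overlapped in both measures.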

How the data were processed

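ATAC-seq was done on 9 libraries in 3 groups of VCaP cells. Per the labels' protocols, cells were crosslinked with 1% formaldehyde before tagging with Tn5, and the same text also describes a single-cell preparation without saying which library it applies to. The submitters' processing notes name BWA 0.7.15-r1140, MACS2 2.2.7.1, HOMER 3.12 and hg19, without roles. The deposited lists, 1 per library, give each peak's position and a score, which the sources used here do not define. No score lies below 2. There are no read counts, so depth and its precision are unknown, and the authors' score only ranked or filtered peaks within a list.

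Peaks on chromosomes 1 to 22 and X were merged at an overlap of at least 1 bp. A library called a region when any of its peaks overlapped it, and consensus regions needed 2 or more libraries of one group. Calls were compared by Fisher's exact test, covered length by two-sided exact permutation, and rank positions by limma 3.58.1 in R 4.3.3 with a trend in the variance and Benjamini-Hochberg adjustment, over all 9 libraries. The counting of call patterns and the limma fit were tested on simulated data. Covered length and the permutation test were checked on the real windows against another computation. Named regions were the best-ranked of each window, those called in every library of one group and none of another, and, per contrast, those past the threshold or the 3 with the smallest unadjusted p; others are named after their values were seen. The gene windows and motif lists were chosen with earlier results of these data known. Alternatives were a minimum score, equal list lengths, the overlap, the window size, the replicate block and leaving out each library. Python 3.11.15 with numpy 2.4.6, pandas 2.3.3 and scipy 1.17.1 was used. One region of the CDC20 window is not reported here on its own.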

Additional observations from a re-analysis of the deposited data

How the results depend on the processing

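The 38 results were recomputed under those of 21 alternative settings that applied to each, which gave 572 values. The call of MKI67-3 in VCaP16 against both VCaP groups held with lists of equal length and under no other setting run on it. The count of member regions past the threshold was 0 in place of 1 with a logit of rank position and a minimum score of 5. Without any 1 library it was 0 as well (lowest 0, highest 0). The exact permutation test also gave 0, but no region could pass it. Its smallest possible p, 0.0119, had an adjusted p of 0.281. The count was also 0 at a peak overlap of 50%, where MKI67-3 was not called in all 9 libraries and so was not among the regions tested. For the other settings the cause was not tested. Its difference stayed positive, between 22.53 and 28.78 points when 1 library was left out.

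Calls unique to one group depended on the settings. Shares over all consensus regions are given for the main setting only, so the counts below have no background beside them. A higher count under a looser rule is not read as a difference between groups. VCaP_ENZ and not VCaP_DMSO gave 0 regions at a score of at least 5 and at equal list length, 2 when 2 of 3 libraries were enough, and 1 to 2 without 1 library. At 50% overlap its 1 region was FOXM1-1 in place of CDK1-3. VCaP16 and not VCaP_DMSO gave 2 at 50% overlap (E2F1-6 and UBE2C-2), 4 when 2 of 3 were enough, and 1 to 4 without 1 library, with 4 without VCaP16 replicate 1. With 2 of 3 enough, VCaP_DMSO and not VCaP_ENZ, VCaP16 and not VCaP_ENZ, and VCaP16 and not VCaP each gave 1, and each ran from 0 to 1 without 1 library. Fisher's exact test gave 1 region under an unadjusted 0.05 at 50% overlap, UBE2C-2, and 0 to 1 without 1 library.

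For covered length in VCaP16 minus VCaP, the count of windows higher at an unadjusted 0.05 was 0 with shorter windows, longer windows, the share of covered sequence, the number of peaks and the replicate block, and 0 to 1 without 1 library. The count lower was 1 with windows 10 kb shorter at each end, TOP2A at -231.5 bp (exact permutation p = 0.0476). Shares of tiles are given for the main setting only, so these counts have no background either. None of the other differences that changed sign had passed a test. With a score of at least 5 they were -219.8 bp in CDC20, -32.7 bp in MKI67 and -71.5 bp in PLK1. With lists of equal length they were -141.3 bp in CDC20, -23.7 bp in TOP2A, -126.8 bp in MKI67 and -71.5 bp in PLK1. Shorter windows gave -113.7 bp in E2F1, and longer windows -79.0 bp in TOP2A and -44.2 bp in PLK1. As bp per Mb of covered sequence they were -10.3 in CDC20, -2.08 in TOP2A, -3.42 in MKI67, -0.056 in FOXM1, -5.65 in E2F1 and -3.24 in PLK1. As numbers of peaks they were 0.333 in UBE2C and -0.167 in MKI67, and 1.00 for CDC20 in VCaP_ENZ minus VCaP_DMSO. Without 1 library the differences ran from 427.2 to 920.2 bp in CDK1, -99.8 to 97.2 bp in UBE2C, -171.2 to 194.8 bp in CDC20, -129.8 to 270.2 bp in TOP2A, -476.5 to 566.0 bp in MKI67 and -120.2 to 146.3 bp in PLK1. In VCaP_ENZ minus VCaP_DMSO, CDC20 ran from -1194 to -793.8 bp.

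Deviations of same-numbered libraries correlated at -0.009 to 0.049 over 33033 regions, which gave no clear pairing by replicate number across the groups. With the replicate block 0 member regions passed in VCaP16 minus VCaP (MKI67-3, limma adjusted p = 0.0741). In VCaP_ENZ and VCaP_DMSO each library correlated best with its own number, at 0.020, 0.049 and 0.032, a hint from the data and not the design. Peak lists without read counts limit every comparison, since a region missing from a list may lie just under the caller's threshold.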
